A study of Rattus norvegicus with 16 samples.

Results

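The nuclear genes of oxidative phosphorylation (OXPHOS) were followed in the renal tissue of 16 male inbred SD rats. They were taken as every row of the gene table whose name begins with Nduf, Uqcr, Cox4, Cox5, Cox6, Cox7, Cox8 or Atp5, or equals Sdha, Sdhb, Sdhc or Sdhd, with names beginning LOC or AABR left out. This rule found 98 of 35849 genes, which carry 94 different names because Cox6b1, Ndufa10l1, Ndufv3 and Uqcrb each stand in a pair of rows. By role they were 7 core subunits, 31 accessory subunits and 8 assembly factors of complex I, 4 genes of complex II, 9 of complex III, 22 of complex IV and 17 of complex V. Ndufa4 and Ndufa4l2, whose proteins sit with complex IV, were counted there. The 4 groups held 4 rats each. Rats of the normal group were injected with citrate buffer and ate normal diet. Rats of the DN (diabetic nephropathy) group were injected with streptozotocin (STZ), a toxin of pancreatic beta cells, at 45 mg/kg and were given a diet high in glucose and fat. They entered the study only with a blood glucose over 16.7 mmol/L. The remaining groups had the same STZ, glucose criterion and diet, and also received sinomenine (SIN), an alkaloid of a medicinal vine, each day for 8 weeks, at 20 mg/kg in the SIN (20 mg/kg) group and at 40 mg/kg in the SIN (40 mg/kg) group. All rats were between 6 and 8 weeks old at the start. STZ and the diet were given to the same rats, so their effects cannot be told apart in the DN over normal comparison.

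Oxidative phosphorylation makes most of the ATP that the kidney tubule spends on moving sodium. Complex I (NADH dehydrogenase) and complex II (succinate dehydrogenase) pass electrons to ubiquinone, complex III passes them on to cytochrome c, and complex IV (cytochrome c oxidase) gives them to oxygen. Complexes I, III and IV pump protons out of the matrix, and complex V (ATP synthase) lets them back in while it makes ATP. Most subunits are encoded in the nucleus and a few in the mitochondrial genome, and complex II is wholly nuclear.

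The deposited values were estimated read counts, whose total per rat ran from 19616284 to 25216979 after rounding. Markers of the renal tubule were abundant, and the receptor Lrp2 of the proximal tubule was between 1570 and 2838 CPM (counts scaled to library size, with TMM factors) in every rat. Of the markers looked at, Myl2 of muscle was at 0 in all 16 rats and Pvalb of the distal convoluted tubule was at 0 or close to it. The serial numbers of the libraries run without a break inside a group, which means that condition and library batch cannot be told apart. In whole tissue, fewer cells of a type and less RNA per cell cannot be told apart either.

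Promoter sequences show what the members share around their start sites. RefSeq promoters of the rat build GRCr8, 250 bases before to 50 bases after the start, were matched by name to 81 of the 94 members. They were searched on both strands for short motifs of factors known to bind respiratory genes. The core of the NRF1 (nuclear respiratory factor 1) motif, GCGCATGC, was in 11 of the 81 members (13.58%) and in 2.77% of the promoters of 27457 genes. The ETS motif CCGGAAG, which GABPA (nuclear respiratory factor 2) can bind, was in 21 members (25.93%) and in 9.63% of all promoters. The YY1 motif AAGATGGCG was in 13.58% of the members and 1.99% of all promoters, and the ESRRA motif TCAAGGTCA in 2.47% and 0.44%. The NFY motif CCAAT was in 34.57% of the members and 39.6% of all promoters. The NRF1 and ETS motifs were thus seen in a larger share of members than of all genes with a promoter, whereas CCAAT was not. All genes here means 27457 genes, not limited to those expressed in the kidney. A counted match can also lie outside the 150 bases printed below. Genes of related sequence share promoters in part, and a match is no evidence of binding. The 150 bases before the start of 4 members follow, with matches in capitals. Atp5mc2 and Ndufa11 are shown for the NRF1 core, which overlaps its own reverse complement in both, Ndufs8 for CCAAT with the reverse complement of the ETS motif, and Cox7c because none of these motifs lies in its stretch.
Atp5mc2, chr7:135678219-135678368, minus strand: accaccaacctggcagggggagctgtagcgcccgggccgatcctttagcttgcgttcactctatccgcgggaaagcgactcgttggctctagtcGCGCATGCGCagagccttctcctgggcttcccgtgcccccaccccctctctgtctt
Ndufa11, chr9:1637464-1637613, plus strand: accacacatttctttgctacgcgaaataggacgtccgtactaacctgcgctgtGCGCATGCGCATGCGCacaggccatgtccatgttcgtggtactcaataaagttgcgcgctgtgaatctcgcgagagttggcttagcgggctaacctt
Ndufs8, chr1:210573699-210573848, minus strand: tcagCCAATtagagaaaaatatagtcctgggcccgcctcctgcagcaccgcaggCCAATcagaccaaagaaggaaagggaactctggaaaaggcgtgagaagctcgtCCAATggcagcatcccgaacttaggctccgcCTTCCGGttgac
Cox7c, chr2:18579171-18579320, minus strand: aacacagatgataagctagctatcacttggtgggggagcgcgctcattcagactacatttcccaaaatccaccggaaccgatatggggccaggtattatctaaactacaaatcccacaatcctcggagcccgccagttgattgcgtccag
Atp5mc2, Ndufa11 and Ndufs8 are members whose counts were higher in the DN group, and Cox7c is a member whose mean was lower there without passing the test. Of the 31 matched members called higher in the DN group, 7 (22.58%) held the NRF1 core and 10 (32.26%) the ETS motif. Of the 15 matched members with a negative DN over normal difference, 1 (6.67%) held the NRF1 core and 3 (20.0%) the ETS motif. In the same order, the YY1 motif was in 6 (19.35%) and 2 (13.33%), the NFY motif in 11 (35.48%) and 1 (6.67%), and the ESRRA motif in 0 (0.0%) and 1 (6.67%). These shares are descriptions and carry no test.

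Levels of different genes were compared per length, as mean CPM per kilobase over the 16 rats, with the gene length of the table. The catalytic beta subunit and the alpha subunit of the F1 part of ATP synthase stood highest, with Atp5f1b at 2323 and Atp5f1a at 1542. They were followed by Cox6a1 at 1170, Cox4i1 at 1129 and Cox8a at 1056, which are subunits of complex IV. The order of these 3 was another in normal rats, with Cox4i1 at 974.1, Cox8a at 940.1 and Cox6a1 at 910.7. Assembly factors, which help to build complex I but are not part of it, were far lower, from 4.05 for Ndufaf4 to 52.9 for Ndufaf8. Among isoforms, the ubiquitous Cox4i1 (1129) stood above Cox4i2 (2.28), a form linked to low oxygen, and Ndufa4 (349.5) stood above Ndufa4l2 (2.12). Cox6a1 stood above the muscle form Cox6a2 (0.0626), and Cox8a above Cox8b (4.35). The c subunit of the ATP synthase rotor is encoded by 3 genes, and Atp5mc3 (790.6) stood above Atp5mc2 (629) and Atp5mc1 (538.8). These are pooled levels and are given as a description.

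In total 90 of the 98 members had enough counts to be tested in every comparison. The other 8 were at or near 0. Cox7b2, Cox8c and Cox6c-ps1 had no count in any rat. Cox6a2 had 10 counts over the 16 rats, Atp5md had 6 and Ndufs6 had 2. The second row of Cox6b1 (ENSRNOG00000034161) and that of Ndufa10l1 (ENSRNOG00000062245) were also near 0. Ndufs6 is a subunit of complex I and Atp5md of complex V, so these subunits could not be followed. Many OXPHOS genes have near-identical processed copies elsewhere in the genome, and how such reads were assigned is not given in the sources used here.

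OXPHOS members took a larger share of all counts in the DN group than in the normal group. The share was 2.30%, 2.27%, 2.21% and 2.26% in normal rats 1 to 4, and 2.79%, 2.80%, 2.43% and 2.72% in DN rats 1 to 4. The lowest DN rat, rat 3, was above every normal rat, so the groups did not overlap. The share was between 2.38% and 2.69% in the SIN (20 mg/kg) group and between 2.54% and 2.66% in the SIN (40 mg/kg) group, also above every normal rat and overlapping with the DN group. The 13 subunits encoded in the mitochondrial genome were at 11.1% to 12.3% of counts in normal rats and 11.3% to 14.5% in DN rats. These groups overlapped through DN rat 2, at 11.3%. DN rats 1, 3 and 4, at 13.4%, 12.7% and 14.5%, were above every normal rat. In the SIN (40 mg/kg) group the share of these 13 subunits was between 9.86% and 11.7%.

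**Figure D1:**
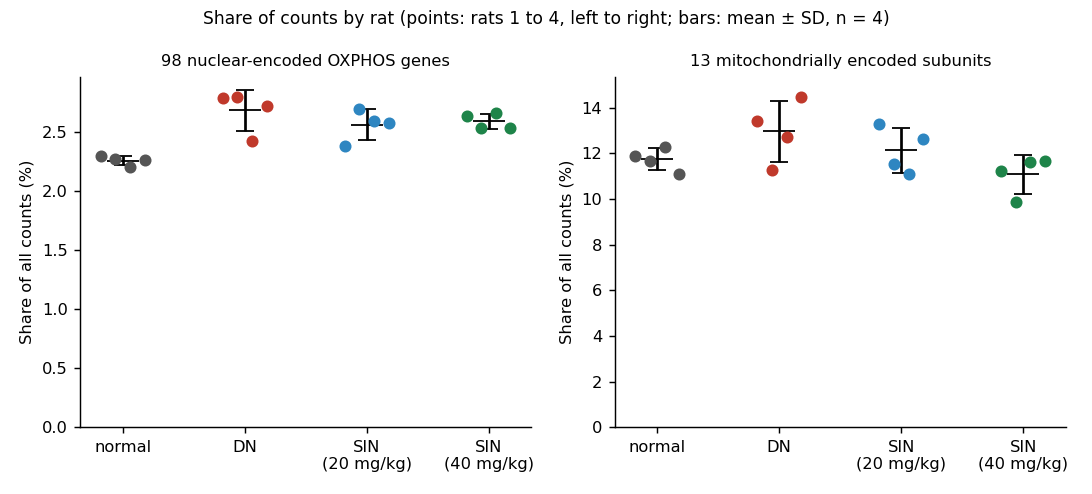
Share of all counts (%, y axis) in each rat for the 98 nuclear-encoded OXPHOS genes (left) and the 13 mitochondrially encoded subunits (right), by group, with the mean and SD of 4 rats. The nuclear share of every rat given STZ, 2.38% or more, was above the highest normal rat at 2.30%, whereas the mitochondrially encoded shares of the groups overlapped.

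In the DN over normal comparison, 37 of the 90 tested members were higher in the DN group and 1 was lower at an adjusted p under 0.05 (edgeR's quasi-likelihood test, Benjamini-Hochberg over all genes tested). Of all 15775 genes tested, 8.74% were called higher and 10.8% lower. The differences were modest. The median log2 fold change of the members was 0.31, against 0.00 over all genes, and 74 members had a positive value. At an unadjusted p under 0.05, 57 members were higher and 1 was lower, against 17.5% and 19.4% of all genes. In 46 members every DN rat was above every normal rat and in none was every DN rat below, against 11.2% and 13.1% of all genes. Markers of cell types differed as well. In the thick ascending limb Umod was at 2921 to 3596 CPM in normal rats and 1509 to 2302 CPM in DN rats, with a log2 fold change of -0.77 (SE 0.161, edgeR adjusted p = 0.0154). Among 4 markers of this segment it was the only one called. Cldn16 (-0.57, edgeR adjusted p = 0.0959), Slc12a1 (-0.17) and Kcnj1 (0.15) did not pass the test. Of 7 collecting duct markers 2 were called lower (Atp6v1b1, -0.47, and Slc26a4, -0.89), while the sum of the 7 had a median of 1022 CPM in normal and 1583 CPM in DN rats. Values of the 7 went both ways, with 4 positive and 3 negative. Aqp2 (1.23, edgeR adjusted p = 0.076) and Aqp3 (0.88, edgeR adjusted p = 0.0928) did not pass the test. Their medians were 345.4 and 165.9 CPM in normal rats, and 825.9 and 313.5 CPM in DN rats. All 5 podocyte markers were negative, with a median of -0.44, and none was called. None of the 8 proximal tubule markers was called, and their sum was 10900 to 15800 CPM in normal rats and 10440 to 14460 CPM in DN rats. Of the other markers called, Ptprc of leukocytes (-0.81) and Alas2 of erythroid cells (-1.50) were lower. Cidec of adipocytes (0.75), Col1a1 (1.08) and Pdgfrb (0.38) were higher. Leukocyte markers that were not called went both ways, with Csf1r at 0.43, Cd68 at 0.24 and Cd3e at -0.70. The sum of the 5 leukocyte markers had a median of 68.86 CPM in normal and 86.61 CPM in DN rats. The part of the makeup of the tissue in the members' values was not tested. The number of calls depended on single rats. It was 38 with all rats, 5 without normal replicate 3, 4 without normal replicate 4 and 24 without normal replicate 1. Without DN replicates 1, 2 and 4 it was 20, 13 and 23. Calls over all genes fell as well, from 3074 of 15775 to 987 of 15953 without normal replicate 3. Without normal replicate 4 they were 769 of 15978, and without normal replicate 1 they were 1622 of 15977. Without DN replicates 1, 2 and 4 they were 1602 of 15995, 1308 of 16016 and 2646 of 16017. The median of the members stayed between 0.284 and 0.367 whichever rat was left out.

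**Figure D2:**
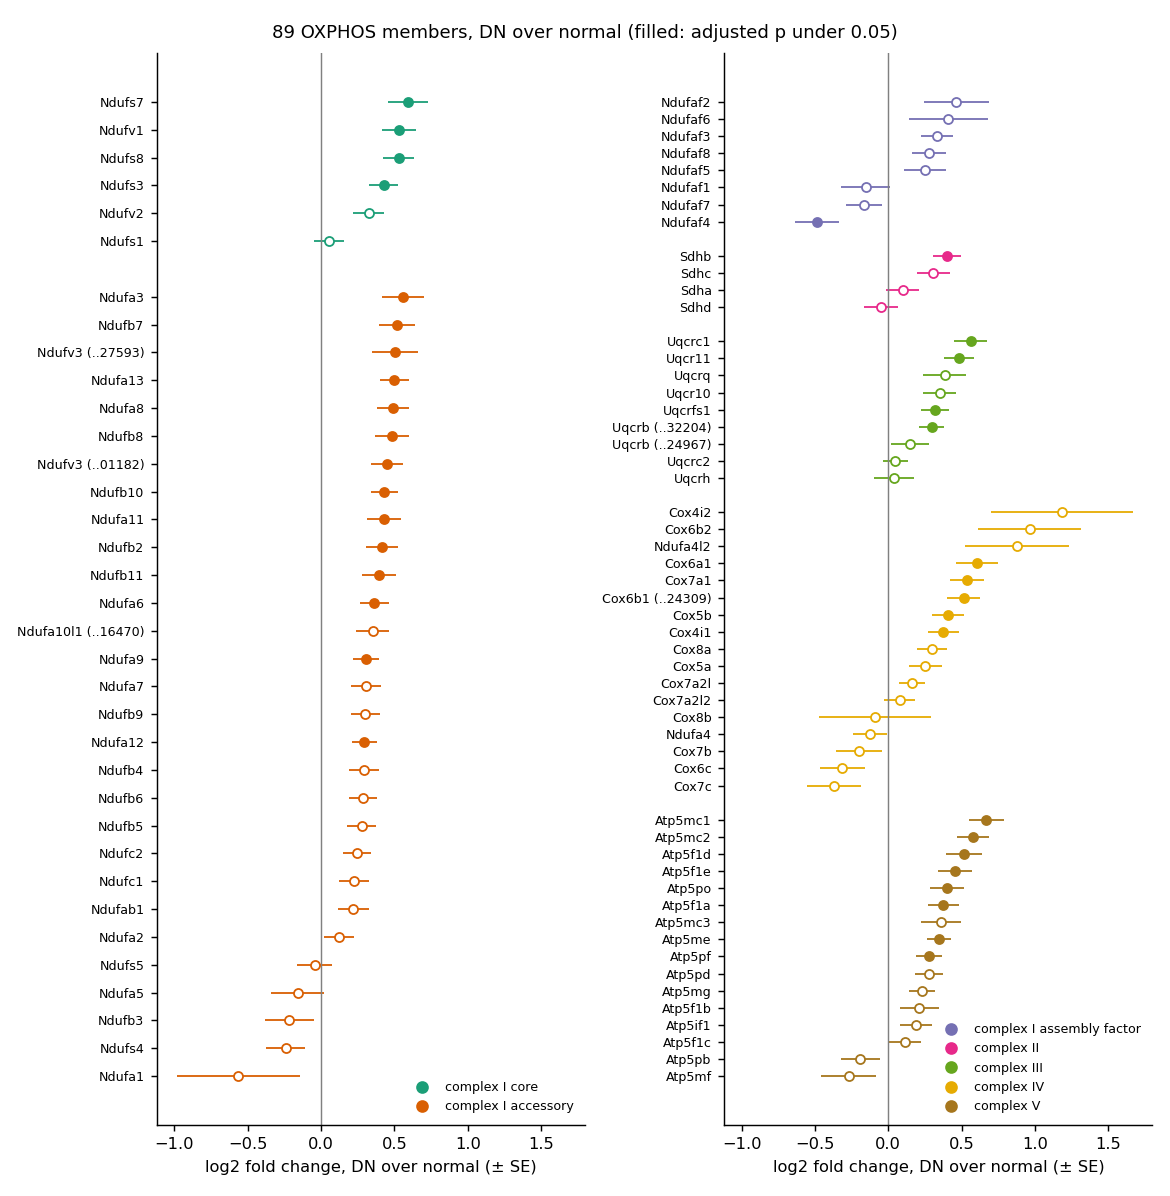
Fitted log2 fold change of DN over normal (x axis, ± SE) for 89 of the tested members, ordered within their complex, with filled points for an adjusted p under 0.05. Most points of each complex lie to the right of 0, and Ndufaf4 is the only filled point to the left.

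Of the 7 core subunits of complex I, which carry its flavin and its iron-sulfur clusters, 5 were higher in the DN group and the median log2 fold change was 0.43. Ndufs8, an iron-sulfur subunit, was at 159.7, 160.2, 132.0 and 141.1 CPM in normal rats and at 228.1, 220.3, 184.0 and 221.0 CPM in DN rats. Every DN rat was above every normal rat. Its log2 fold change was 0.53 (SE 0.105, edgeR adjusted p = 0.0131). Ndufs7, which hands electrons to ubiquinone, rose by 0.59 (SE 0.136, edgeR adjusted p = 0.0201), and Ndufv1, which binds NADH and the flavin, by 0.53 (SE 0.115, edgeR adjusted p = 0.0169). Ndufs3 rose by 0.43. Ndufs1, the largest core subunit, was an exception. It was at 417.8 ± 43.7 CPM in normal rats and 432.3 ± 19.5 CPM in DN rats (mean ± SD, n = 4), with a log2 fold change of 0.05 (SE 0.103), and the groups overlapped.

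Of the 29 tested accessory subunits of complex I, which surround the core, 14 were higher in the DN group and none was lower. Ndufa13, also known as GRIM-19, was at 84.5 ± 7.74 CPM in normal rats and 119.1 ± 10.3 CPM in DN rats (mean ± SD, n = 4), a log2 fold change of 0.50 (SE 0.0978, edgeR adjusted p = 0.0128). Ndufb7 (0.52), Ndufa8 (0.49), Ndufb8 (0.48) and Ndufb10 (0.43) rose as well. Negative values that did not pass the test were seen for Ndufs4 (-0.24), Ndufb3 (-0.22), Ndufa5 (-0.16) and the low Ndufa1 (-0.56, at 1.67 CPM in normal rats). None of the 8 assembly factors was called higher, and Ndufaf4 was called lower though not under most alternatives. Ndufaf4 was at 14.7, 11.0, 15.4 and 13.8 CPM in normal rats and at 9.65, 8.60, 9.48 and 11.3 CPM in DN rats, so that the highest DN rat passed the lowest normal rat. Its log2 fold change was -0.49 (SE 0.149, edgeR adjusted p = 0.0465). The value was negative under all 16 alternatives and called under 6 of them, with adjusted p from 0.0183 to 0.126.

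In complex II, the enzyme that the citrate cycle and the respiratory chain share, 1 of 4 genes was higher in the DN group. Sdhb, the iron-sulfur subunit, was at 332.6, 329.4, 279.6 and 297.8 CPM in normal rats and at 404.1, 405.6, 391.8 and 429.3 CPM in DN rats. The groups did not overlap, and the log2 fold change was 0.40 (SE 0.0931, edgeR adjusted p = 0.0209). The flavin subunit Sdha had a value of 0.10 (SE 0.113), and the membrane anchors Sdhc and Sdhd had values of 0.31 (SE 0.112, edgeR adjusted p = 0.0788) and -0.05 (SE 0.117). The values of this complex therefore ran from -0.05 to 0.40, and differences between its genes were not tested.

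In complex III, 4 of 9 genes were higher in the DN group and all 9 had a positive value. Uqcrc1, a core protein, was at 442.4, 464.2, 374.9 and 415.8 CPM in normal rats and at 690.6, 654.0, 539.3 and 613.8 CPM in DN rats. No DN rat was as low as any normal rat, and the log2 fold change was 0.56 (SE 0.111, edgeR adjusted p = 0.013). Its partner core protein Uqcrc2 had a value of 0.05 (SE 0.0876) with overlapping groups. The small subunit Uqcr11 rose by 0.48 and the Rieske iron-sulfur protein Uqcrfs1 by 0.32.

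Of the 17 tested genes of complex IV, 5 were higher in the DN group, namely Cox6a1 (0.60), Cox7a1 (0.54), Cox6b1 (0.51), Cox5b (0.41) and Cox4i1 (0.37). Cox6b1 (ENSRNOG00000024309) was at 259.0, 283.6, 245.8 and 239.2 CPM in normal rats and at 413.9, 380.9, 305.2 and 362.0 CPM in DN rats, without overlap (SE 0.112, edgeR adjusted p = 0.0172). Cox7a1 is a muscle-type isoform. It was at 51.8 ± 6.81 CPM in normal rats and 74.8 ± 8.74 CPM in DN rats (mean ± SD, n = 4), and the summed level of the 5 muscle markers was 0.145 to 0.395 CPM in normal rats and 0.429 to 7.25 CPM in DN rats. Most of the highest sum was Tnnt2, at 0.0484 to 0.220 CPM in normal rats and 0.238 to 6.62 CPM in DN rats. That sum was in DN replicate 3, and without that rat the Cox7a1 value was 0.57 (edgeR adjusted p = 0.0255). Small subunits of the same enzyme had negative values that did not pass the test, with Cox7c at -0.37 (SE 0.184), Cox6c at -0.31 (SE 0.154) and Cox7b at -0.20 (SE 0.158). Cox7c was at 133.4 ± 27.2 CPM in normal rats and 102.8 ± 19.8 CPM in DN rats (mean ± SD, n = 4).

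Rare isoforms of complex IV had larger fold changes that did not pass the test. Cox4i2 was at 0.512, 2.03, 2.19 and 1.42 CPM in normal rats and at 5.49, 4.40, 1.66 and 2.48 CPM in DN rats, which overlapped, with a log2 fold change of 1.18 (SE 0.483, edgeR adjusted p = 0.107). Ndufa4l2 had a value of 0.88 (SE 0.356, edgeR adjusted p = 0.106) and Cox6b2 of 0.96 (SE 0.353, edgeR adjusted p = 0.0797). Cox4i2 and Ndufa4l2 are known from pericytes. Of 6 markers of fibroblasts and mural cells, 2 were called higher in the DN group (Col1a1 and Pdgfrb) and none lower. Dcn had a negative value that did not pass the test (-0.48, SE 0.216, edgeR adjusted p = 0.134). The sum of the 6 was 239.4 to 314.1 CPM in normal rats, with a median of 282.3 CPM. In DN rats it was 286.0 to 583.8 CPM, with a median of 309.6 CPM. Pdgfrb, a receptor of pericytes, was at 53.2 to 66.2 CPM in normal rats and 74.1 to 82.7 CPM in DN rats, without overlap. The part of these cells in the Cox4i2 and Ndufa4l2 values was not tested. DN replicate 3 had the highest sum of the 6, and without that rat the edgeR adjusted p was 0.0675 for Cox4i2 and 0.0697 for Ndufa4l2. Without it 41 members were called, and 2586 of all 15966 genes tested.

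In complex V, 8 of 16 tested genes were higher in the DN group and none was lower. Atp5mc1, which encodes the c subunit of the rotor ring, had the smallest adjusted p of all members. It was at 243.0, 251.2, 206.6 and 222.0 CPM in normal rats and at 414.2, 355.7, 299.7 and 391.3 CPM in DN rats. The groups were well apart, with a fitted fold of 1.59 and a log2 fold change of 0.67 (SE 0.120, edgeR adjusted p = 0.00956). Atp5mc2 followed with 0.58 (SE 0.109, edgeR adjusted p = 0.011), and Atp5mc3 had 0.36 (SE 0.134, edgeR adjusted p = 0.0836) with overlapping groups. The alpha subunit Atp5f1a rose by 0.38 (SE 0.108), from 2493 ± 217 to 3225 ± 163 CPM (mean ± SD, n = 4). The beta subunit Atp5f1b had a value of 0.21 (SE 0.134, edgeR adjusted p = 0.276) and the groups overlapped. Atp5mf (-0.27) and Atp5pb (-0.19), both outside the catalytic head, had negative values that did not pass.

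**Figure D3:**
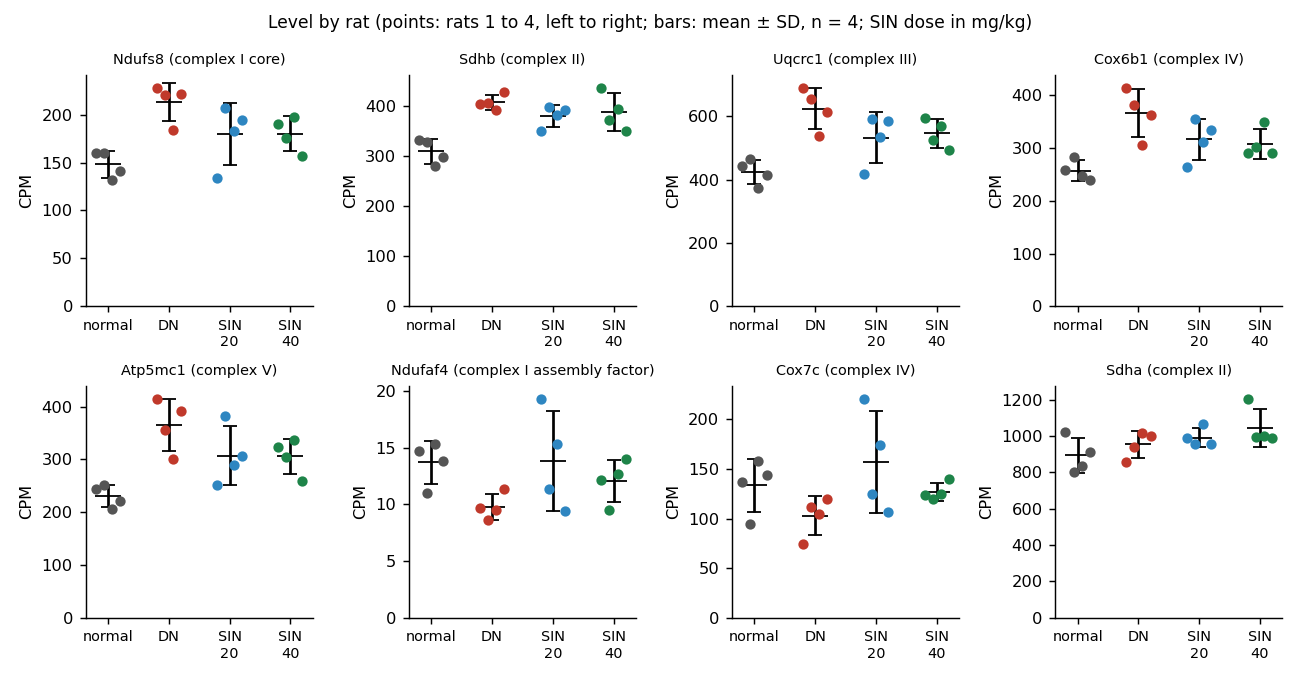
CPM (y axis, from 0) of 8 members in each of the 16 rats, with the mean and SD of 4 rats per group. Ndufs8, Sdhb, Uqcrc1, Cox6b1 and Atp5mc1 were higher in all 4 DN rats than in any normal rat, Ndufaf4 and Cox7c had lower means in the DN group with overlapping rats, and Sdha overlapped throughout.

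Other mitochondrial genes were counted in the same comparison. Of all genes tested there, 8.74% were called higher and 10.8% lower. At an unadjusted p under 0.05, 17.5% of all genes were higher and 19.4% lower. Of 12 tested genes of the citrate cycle, which feeds the chain with NADH and succinate, 4 were higher (among them Mdh2, Dlst and Cs, by 0.43, 0.43 and 0.40) and 1 was lower (Sucla2, -0.70). Of 34 tested electron carriers and assembly factors of complexes II to V and complex I outside the Ndufaf family, 6 were higher and 1 was lower. This list also held Cyc1, the cytochrome c1 subunit of complex III, whose name falls outside the naming rule. Cyc1 and cytochrome c (Cycs), to which it passes electrons, differed in direction, with Cyc1 at 0.54 (SE 0.126, edgeR adjusted p = 0.0206) and Cycs at -0.83 (SE 0.230, edgeR adjusted p = 0.0344). Of 7 tested carriers of nucleotides, phosphate and protons, none was called higher, and the ATP/ADP carrier Slc25a4 was lower (-0.42). Of the 7, 5 had a positive value, among them Slc25a5 (0.07), also an ATP/ADP carrier. At an unadjusted p under 0.05, 3 of the 7 were higher and 1 was lower. Of 17 regulators of mitochondrial biogenesis, 1 was higher (the mitochondrial RNA polymerase Polrmt, 0.49) and 2 were lower (Ppargc1b, -0.48, and Gabpa, -0.46). These counts were near the shares of all genes. At an unadjusted p under 0.05, 4 regulators were higher and 4 lower. Values that did not pass the test went both ways. The coactivator Ppargc1a had a value of -0.33 (SE 0.150, edgeR adjusted p = 0.136). Positive values were seen for Pprc1 (0.38, edgeR adjusted p = 0.0537), Esrra (0.35, edgeR adjusted p = 0.0803) and Esrrb (1.00, edgeR adjusted p = 0.097). Of the 13 mitochondrially encoded subunits none was called by edgeR in either direction, with 2 higher and 1 lower at an unadjusted p under 0.05. Medians were 0.16 for the citrate cycle and 0.09 for the electron carriers and assembly factors. They were 0.11 for the carriers of nucleotides, phosphate and protons, 0.05 for the mitochondrially encoded subunits and -0.02 for the regulators.

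Among rats of the same group, the members fell into sets that moved against each other. For this, each rat's deviation from its group mean in log2 CPM was taken, which removes the group differences. Over the 16 rats, Ndufv1, Ndufs8 and Atp5f1d deviated with Uqcrc1, with Pearson's r of 0.97, 0.96 and 0.96. Cox6c (-0.83), Cox7c (-0.77), Ndufa4 (-0.75) and Cox7b (-0.71) deviated against it and with each other, with r of Cox6c with Cox7c at 0.93. The 16 points share 4 groups of libraries, so these values are descriptions. Rat 1 of the SIN (20 mg/kg) group was at one end, with Uqcrc1 at -0.33 and Cox7c at 0.55 against its group. At the other were rat 4 of the SIN (20 mg/kg) group, with 0.15 and -0.50, normal rat 2, with 0.13 and -0.47, and DN rat 1, with 0.15 and -0.44. These deviations of Cox7c inside a group were larger than its DN over normal value of -0.37.

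The same order was seen in the DN over normal comparison. Of the 37 members called higher in the DN group, 32 had an r with Uqcrc1 within groups above 0.5 and 1, Ndufa6, was below 0. All 16 members with a negative DN over normal value had an r below 0, from -0.83 to -0.03. Genes outside OXPHOS had the same order. Among genes that are not members, 569 had an r with Uqcrc1 over 0.8, and 97.5% of them had a positive DN over normal value, with a median of 0.34. The 27 members in that range, Uqcrc1 included, had a median of 0.46. At an r under -0.5 the median was -0.44 over 3041 other genes and -0.20 over 11 members. In the ranges from -0.5 to 0, from 0 to 0.5 and from 0.5 to 0.8, the members had medians of 0.08, 0.32 and 0.31, and other genes -0.13, 0.13 and 0.25. The median of the members was thus above that of other genes in each of the 5 ranges, and no test was made of this. Cyc1 (r of 0.93) and Cycs (r of -0.65) lay at opposite ends as well. What sets this axis among the rats of a group was not tested.

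**Figure D4:**
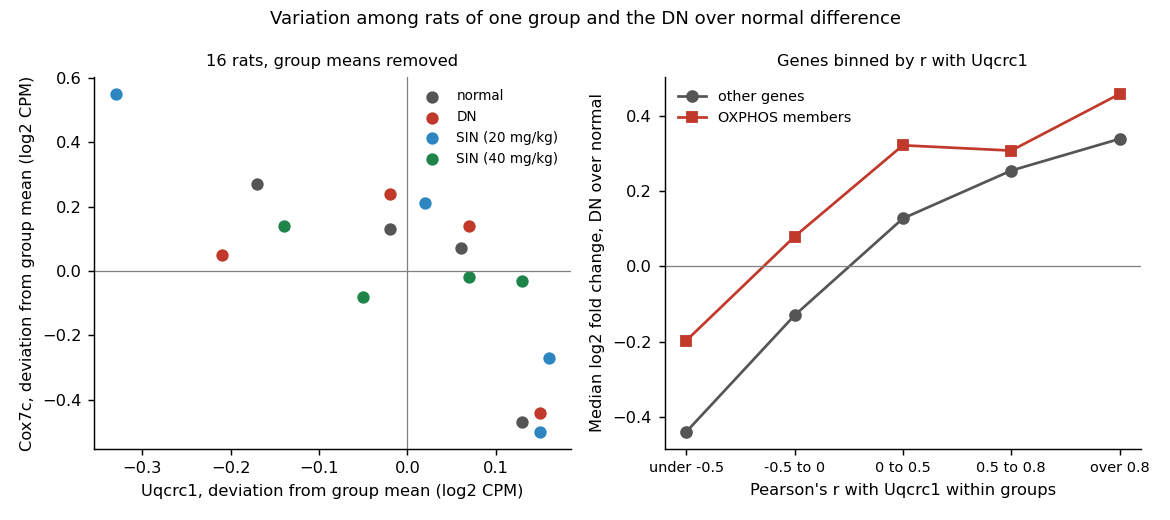
Left, the deviation of Cox7c from its group mean against that of Uqcrc1 (both in log2 CPM) in 16 rats, coloured by group, where rats high in Uqcrc1 were low in Cox7c (Pearson's r of -0.77). Right, the median DN over normal log2 fold change of other genes and of members in 5 ranges of r with Uqcrc1 within groups, which rose from -0.44 to 0.34 in other genes and from -0.20 to 0.46 in members.

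In the SIN (20 mg/kg) over DN comparison, none of the 90 members was called by edgeR's quasi-likelihood test or by DESeq2. By edgeR 0 of 15724 genes were called (0.0%), and by DESeq2 220 of the 12662 to which it gave an adjusted p (1.74%), which held 86 of the members. At an unadjusted p under 0.05, edgeR gave 4 members higher and 4 lower, against 9.2% and 6.24% of all genes, and DESeq2 gave 5 and 12, against 9.42% and 7.4%. These counts rested on single rats. With a rat left out they ran from 0 to 13 higher and from 1 to 17 lower, with 2 higher and 17 lower without DN replicate 3, 11 and 2 without DN replicate 4, 6 and 13 without SIN (20 mg/kg) replicate 2, and 13 and 5 without SIN (20 mg/kg) replicate 4. The median log2 fold change of the members was -0.10 and 60 of 90 were negative. Over all 15724 genes the median was -0.01 and 8026 were negative. At an r with Uqcrc1 within groups over 0.8, the median was -0.23 over 27 members and -0.21 over 569 other genes. Markers of fibroblasts and mural cells had larger values in the same comparison, with all 6 negative, a median of -1.06 and 4 lower at an unadjusted p under 0.05. None of them was called, and their part in the members' values was not tested. Uqcrc1 was at 418.3, 590.8, 533.7 and 585.8 CPM in SIN (20 mg/kg) rats, between the levels of the normal and DN groups in its mean but overlapping with both, and its log2 fold change over DN was -0.24 (SE 0.131, edgeR adjusted p = 0.39). Cox7c had 0.60 (SE 0.231, edgeR adjusted p = 0.292) and was at 220.5, 125.0, 174.4 and 106.8 CPM. Cox6b2 had the largest shift, -1.34 (SE 0.359, edgeR adjusted p = 0.27), at levels of 0.355 to 0.559 CPM in SIN (20 mg/kg) rats and 0.86 to 1.73 CPM in DN rats. Ndufaf4, lower in the DN group, had 0.50 (SE 0.218, edgeR adjusted p = 0.318).

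In the SIN (40 mg/kg) over DN comparison, again no member was called by edgeR or DESeq2. By edgeR 0 of 15530 genes were called (0.0%), and by DESeq2 424 of the 13697 to which it gave an adjusted p (3.1%), which held 87 of the members. At an unadjusted p under 0.05, edgeR gave 0 members higher and 12 lower, against 9.9% and 7.21% of all genes, and DESeq2 gave 1 and 21, against 9.48% and 8.62%. Single rats moved the 12. It was 3, 7, 27 and 2 without DN replicates 1 to 4, the last with 6 members higher, and 8, 3, 17 and 2 without SIN (40 mg/kg) replicates 1 to 4. The 6 markers of fibroblasts and mural cells were again all negative, with a median log2 fold change of -0.93. Their sum had a median of 309.6 CPM in DN and 254.6 CPM in SIN (40 mg/kg) rats. The highest DN sum, 583.8 CPM, was in DN replicate 3. For the members the median log2 fold change was -0.13 and 65 of 90 were negative. Over all 15530 genes the median was 0.01 and 7614 were negative. At an r with Uqcrc1 within groups over 0.8, the median was -0.24 over 27 members and -0.19 over 569 other genes. Among the 12 were Atp5mc2 (-0.26, SE 0.0999, edgeR adjusted p = 0.25), Ndufs8 (-0.24, SE 0.104), Cox7a1 (-0.32, SE 0.118) and Ndufaf6 (-0.53, SE 0.191), a factor needed to build complex I. Atp5mc2 was at 417.9, 386.0, 414.5 and 358.0 CPM in SIN (40 mg/kg) rats and at 496.3, 469.9, 410.0 and 507.9 CPM in DN rats. Both SIN comparisons share the 4 DN rats with the DN over normal comparison, so opposite signs in them are not independent.

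Set against the normal group, most members of both SIN groups had positive values, of which few or none passed the test. In the SIN (20 mg/kg) over normal comparison 85 of 90 members were positive, with a median of 0.21, against 8016 of 15877 genes and a median of 0.00. By edgeR 7 members were called higher and none lower, against 2.77% and 3.58% of 15877 genes. At an unadjusted p under 0.05, 27 were higher and none lower, against 10.2% and 10.6% of all genes, and with a rat left out the 27 ran from 18 to 44, the highest without SIN (20 mg/kg) replicate 1. Uqcr10, a small subunit of complex III, was at 29.0, 24.5, 23.2 and 24.6 CPM in normal rats and at 38.2, 40.7, 37.9 and 33.6 CPM in SIN (20 mg/kg) rats. The groups did not overlap, and the log2 fold change was 0.57 (SE 0.107, edgeR adjusted p = 0.0125). Ndufa6 (0.43, edgeR adjusted p = 0.017), Ndufa13 (0.46), Ndufa12 (0.33), Ndufv3 (ENSRNOG00000027593, 0.53), the assembly factor Ndufaf8 (0.48) and Atp5if1 (0.35), the inhibitor of ATP synthase, were the others. Of these 7, only Uqcr10 was called under all 16 alternatives, and the count ran from 1 to 11 when a rat was left out. The more abundant row of Ndufv3 (ENSRNOG00000001182) was not called. It had means of 154.3 CPM in normal and 175.3 CPM in SIN (20 mg/kg) rats, with overlap. The called row had means of 14.6 and 21.0 CPM. Atp5mc1 had a value of 0.41 (SE 0.133, edgeR adjusted p = 0.106).

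In the SIN (40 mg/kg) over normal comparison 76 of 90 members were positive, with a median of 0.18, against 7979 of 15735 genes and a median of 0.005. No member was called by edgeR, against 2.28% of genes called higher and 3.69% lower among 15735. DESeq2 called 11 members higher and none lower, against 5.06% and 6.15% of 15719 genes. At an unadjusted p under 0.05, edgeR gave 27 members higher and none lower, against 11.4% and 11.5% of all genes. The 27 became 15 and 12 without normal replicates 3 and 4, and 13 without SIN (40 mg/kg) replicate 3. Atp5mc1 was at 322.4, 305.3, 336.3 and 259.6 CPM in SIN (40 mg/kg) rats, all above the normal rats, with a log2 fold change of 0.40 (SE 0.110, edgeR adjusted p = 0.0593). Ndufb8 (0.40), Uqcrc1 (0.36), Cox5b (0.34) and Sdhb (0.32) also had positive values that did not pass the test. For the mitochondrially encoded subunits 12 of 13 values were negative, with a median of -0.20. The comparisons with the normal group share the same 4 normal rats.

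The SIN doses did not differ detectably in these genes. In the SIN (40 mg/kg) over SIN (20 mg/kg) comparison no member was called by edgeR or DESeq2. Of all genes, edgeR called 1 of 15657 (0.00639%) and DESeq2 17 of 15036 with an adjusted p (0.113%). At an unadjusted p under 0.05, edgeR gave 1 member higher and 4 lower, against 2.41% and 2.57% of all genes, and DESeq2 gave 0 and 5, against 2.66% and 2.65%. With a rat left out the edgeR counts ran from 0 to 1 higher and from 1 to 6 lower. The median of the members was -0.03, and it turned to 0.00 without SIN (20 mg/kg) replicate 2 and to 0.06 with the trend on gene length removed. Ndufa6 was at 131.5, 126.9, 123.2 and 125.4 CPM in SIN (20 mg/kg) rats and at 105.9, 112.1, 117.7 and 110.2 CPM in SIN (40 mg/kg) rats, without overlap, with a log2 fold change of -0.19 (SE 0.076, edgeR adjusted p = 0.961). Cox6b2 had 0.83 (SE 0.326) and Cox8b -0.86 (SE 0.377), both at about 1 CPM. The fitted log2 fold changes of the 90 members had a Spearman rho of 0.57 with gene length here, against 0.19 over all genes, as a description over genes that are no independent replicates. Members are short, with a median length of 718.5 bases against 2103 over the genes tested in DN over normal.

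**Figure D5:**
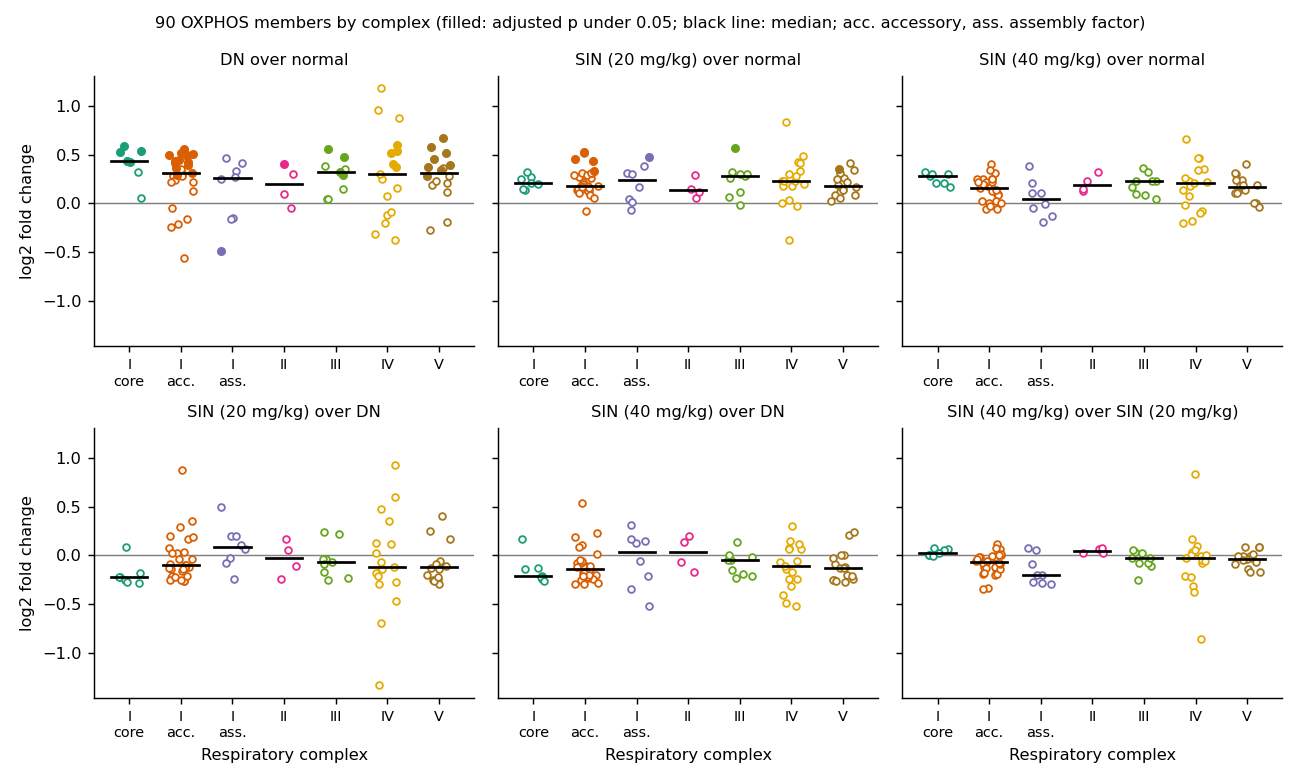
Fitted log2 fold changes (y axis) of the 90 members by complex in the 6 comparisons, with filled points for an adjusted p under 0.05 and black lines for medians. Medians of all complexes are above 0 against the normal group, those of complexes I (core and accessory subunits), III, IV and V are below 0 in SIN over DN, and points are filled in DN over normal and SIN (20 mg/kg) over normal only.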

How the data were processed

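Poly(A) RNA from the renal tissue of 16 rats was sequenced by the authors on an Illumina platform. Per the paper's methods, reads were trimmed with SeqPrep and Sickle and aligned to the rat genome with TopHat. The submitters' processing notes also name Bowtie, RSEM and edgeR. The authors deposited 1 table of estimated counts (expected counts) per gene and rat without normalization, and the gene length in it. Of the nonzero values 74.3% were whole, and all were rounded to whole counts. The program that assigned reads to genes is not given in the sources used here. The deposited group means, and 4 columns of no sample record, were not used. Totals of 19616284 to 25216979 counts set the precision.

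Columns were joined to rats by the library names in the sample records. Each of 6 comparisons between groups was fitted alone with edgeR 4.0.16 in R 4.3.3 (TMM normalization, filterByExpr, quasi-likelihood test, two-sided), and p-values were adjusted over all genes tested. CPM used TMM factors of all 16 rats, and log2 CPM a prior count of 2. Rats are separate animals. Fold changes are those of the fit. Alternatives were DESeq2 1.42.0, RLE normalization, a fit without the filter, a minimum of 10 counts per rat, a joint fit of 16 rats, a block for the replicate number, leaving out mitochondrially encoded genes, removing a trend on gene length, and leaving out each rat. Steps were tested on simulated data.

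Named members are, per comparison, up to 20 with the smallest p among those called and the smallest p of each role, isoform sets, Sdha to Sdhd, Ndufs1, Uqcrc1, Cox5a, the ATP synthase alpha and beta genes, the highest and lowest levels and those not tested. Not every member within this rule is described, and some results are not reported here. Others, the reference genes Uqcrc1 and Cox7c for deviations within groups, and named genes of other lists were picked after their values were seen. Members, lists and tests were chosen with earlier results of these data known.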

Additional observations from a re-analysis of the deposited data

Results flagged for a closer look

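In 200 sets of 4 rats, from 49 members and the summed share of all members in the 4 groups, the highest or lowest rat was compared with the others by Dixon's criterion at the critical value for 4 rats. It picked 12 sets (6.0%), and chance alone picks about 5% (1 in 20), so the list is close to what chance gives. In the normal group, replicate 2 was the lowest for Sdhd at 240.9 CPM and for Ndufaf5 at 8.08 CPM. In the DN group, replicate 1 was the highest for Cox7a1 at 87.8 CPM and the lowest for Ndufs1 at 403.1 CPM, and replicate 3 was the lowest for Uqcr11 at 260.6 CPM. In the SIN (20 mg/kg) group, replicate 1 was the lowest for Atp5f1a at 2336 CPM, Sdhc at 429.8 CPM and Uqcrfs1 at 365.3 CPM. In the SIN (40 mg/kg) group, replicate 1 was the highest for Atp5f1b at 5114 CPM and Sdha at 1203 CPM, and replicate 3 was the highest for Atp5me at 104.3 CPM and Ndufa12 at 103.6 CPM. Over all 90 members, SIN (20 mg/kg) replicate 1 was the lowest of its group in 50 and DN replicate 3 in 65.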

How the results depend on the processing

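Calls over all genes moved when a rat was left out. They went from 3074 to between 769 and 3781 in DN over normal. In SIN (20 mg/kg) over normal they went from 1009 to between 551 and 1230, and in SIN (40 mg/kg) over normal from 940 to between 462 and 1016. Other alternatives moved them too. In DN over normal they were 4160 with DESeq2, 2570 without a filter and 1325 with the replicate block. In SIN (20 mg/kg) over normal they were 1726, 915 and 758 in the same order, and 867 with the length trend removed. In SIN (40 mg/kg) over normal they were 1761 with DESeq2, 980 with all 16 rats in one fit and 949 with the length trend removed. The number of members called was the result that moved most. In DN over normal it was 38, between 27 (without a filter) and 52 (with DESeq2) under 7 alternatives, and 17 with the replicate number as a block. With each rat left out it ran from 4 to 41, with 24 without normal replicate 1, 5 without normal replicate 3, 4 without normal replicate 4, 20 without DN replicate 1, 13 without DN replicate 2 and 23 without DN replicate 4. In SIN (20 mg/kg) over normal the count of 7 became 15 with DESeq2, 3 without a filter, 3 with the replicate block and 2 with the length trend removed. It ran from 1 to 11 with a rat left out, with 3, 2 and 1 without normal replicates 2, 3 and 4, and 11, 2, 2 and 2 without SIN (20 mg/kg) replicates 1 to 4. In SIN (40 mg/kg) over normal the count of 0 became 11 with DESeq2, 1 with all 16 rats in one fit and 2 with the length trend removed. It ran from 0 to 1 with a rat left out and was 1 without SIN (40 mg/kg) replicate 4. The cause was not tested. The 12 members lower in SIN (40 mg/kg) over DN at an unadjusted p under 0.05 became 2 with the replicate block and 2 with the length trend removed. Counts of called members stayed at 0 in the comparisons of a SIN group with DN and of the SIN doses under every alternative run.

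The median log2 fold change of the members kept its sign under every alternative in 5 of the 6 comparisons. With a rat left out it ran from 0.284 to 0.367 in DN over normal, from -0.145 to -0.056 in SIN (20 mg/kg) over DN, from -0.178 to -0.103 in SIN (40 mg/kg) over DN, from 0.185 to 0.245 in SIN (20 mg/kg) over normal and from 0.146 to 0.200 in SIN (40 mg/kg) over normal, where it was 0.237 with the length trend removed. In SIN (40 mg/kg) over SIN (20 mg/kg) it was -0.028, ran from -0.079 to 0.002, and was above 0 at 0.002 without SIN (20 mg/kg) replicate 2 and 0.057 with the length trend removed, an alternative chosen after seeing the data. Same-numbered rats of different groups did not deviate together, with correlations from -0.238 to 0.244, so the numbers do not pair the rats and the block tells nothing of the size of an effect. For single members, 942 values over 59 pairs of a gene and a comparison gave 106 that lost the call, 11 that gained it, 825 that stayed on their side and 0 that changed direction.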
